A study of Mus musculus with 4 samples.

Results

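The Hox genes of the mouse lie in 4 clusters, HoxA on chromosome 6, HoxB on chromosome 11, HoxC on chromosome 15 and HoxD on chromosome 2. They were taken as every row of the deposited expression tables whose symbol is Hox, a cluster letter from a to d and a paralog number, which gave 39 of 22892 rows: 11 in HoxA, 10 in HoxB, 9 in HoxC and 9 in HoxD. For DNA methylation, each cluster was taken from its first to its last Hox gene, and 424 of 1223855 fixed 1 kb windows with at least 5 CpGs fell inside the clusters. Names and positions alone chose the members, and no measured value entered the choice.

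The cells were E14Tg2a, an established mouse embryonic stem cell line. WT was the unmodified line. TetTKO was the same line with Tet1, Tet2 and Tet3 mutated together by CRISPR, from px330 plasmids that carried a guide RNA against each gene, followed by puromycin selection and picking of clones. The mutation was made in 2i medium, which holds the MEK inhibitor PD0325901 and the GSK3 inhibitor CHIR99021. Both lines were then kept for 17 days or longer in serum medium (15% serum, LIF at 1000 units/ml), so every library comes from cells in serum. By mass spectrometry, the submitters found no 5-hydroxymethylcytosine in the TetTKO cells. The labels do not say how many clones the TetTKO material came from, so a feature of 1 clone and an effect of the genotype cannot be told apart. Each genotype had 1 whole-genome bisulfite library and 1 RNA-seq library, 4 libraries in all. No value here has an error between cultures, and no test between genotypes was possible.

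Hox genes encode homeodomain transcription factors that give cells their position along the body axis. Within a cluster the genes are all read in the same direction, and their order follows the order of their domains in the embryo, with paralog 1 at the anterior and early end and paralog 13 at the posterior and late end. In embryonic stem cells the clusters are known as broad Polycomb domains: they are rich in CpGs, low in DNA methylation, covered by the H3K27me3 mark and nearly silent. Tet enzymes oxidise 5-methylcytosine to 5-hydroxymethylcytosine and further, and Tet1 is known to bind CpG-rich DNA, Polycomb targets included. Bisulfite sequencing reads 5-methylcytosine and 5-hydroxymethylcytosine alike, so "methylation" below is the sum of both.

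Promoter sequences show at which letters the methylation calls fell. RefSeq (GRCm38.p6) held promoters for 22 of the 39 genes, 24 sequences in all, each cut here to the 250 bases before the gene start. In 12 of the 24, every CpG that the methylation files list around the start of the gene interval fell on a CG of the sequence, so single calls could be assigned to letters. The 4 below were chosen after their values were seen: the 3 with the largest gains in TetTKO, and that of Hoxa5, which has the most CGs with calls and differed little. They run 5′ to 3′ along the gene, from the + strand of chromosome 15 for Hoxc4, the + strand of chromosome 11 for Hoxb1 and Hoxb8, and the - strand of chromosome 6 for Hoxa5. Capitals mark the CGs with calls in both libraries.
Hoxc4: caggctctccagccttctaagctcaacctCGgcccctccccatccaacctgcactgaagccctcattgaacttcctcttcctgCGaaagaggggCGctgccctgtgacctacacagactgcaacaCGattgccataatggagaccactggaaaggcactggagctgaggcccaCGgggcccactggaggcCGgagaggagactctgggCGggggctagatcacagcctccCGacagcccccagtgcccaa
Hoxb1: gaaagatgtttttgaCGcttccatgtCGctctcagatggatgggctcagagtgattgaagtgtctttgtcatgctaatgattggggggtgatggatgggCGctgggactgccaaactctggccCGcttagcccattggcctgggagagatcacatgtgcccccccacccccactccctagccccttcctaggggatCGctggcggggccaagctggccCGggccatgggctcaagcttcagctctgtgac
Hoxb8: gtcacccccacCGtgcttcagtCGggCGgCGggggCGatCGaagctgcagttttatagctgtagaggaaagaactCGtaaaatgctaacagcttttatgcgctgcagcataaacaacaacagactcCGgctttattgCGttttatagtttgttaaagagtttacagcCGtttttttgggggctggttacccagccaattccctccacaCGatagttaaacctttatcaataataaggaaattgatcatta
Hoxa5: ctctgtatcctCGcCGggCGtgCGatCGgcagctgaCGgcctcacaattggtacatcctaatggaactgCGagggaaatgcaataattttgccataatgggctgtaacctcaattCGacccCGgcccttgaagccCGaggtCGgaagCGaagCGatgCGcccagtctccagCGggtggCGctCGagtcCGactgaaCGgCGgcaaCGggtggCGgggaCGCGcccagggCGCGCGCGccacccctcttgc

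The 8 marked CGs of the Hoxc4 promoter averaged 13.1% methylation in WT (82 read calls) and 49.0% in TetTKO (83 calls), and all 8 were higher in TetTKO. Hoxc4 takes part in patterning of the cervical and thoracic spine. The 6 marked CGs of the Hoxb1 promoter were each at 0 in WT (50 calls) and averaged 29.9% in TetTKO (46 calls). The gain was uneven along the Hoxb1 sequence: the CG that begins 224 bases before the start had 8 of 9 calls methylated, its neighbour at 235 bases had 2 of 8, and the CG at 54 bases had 0 of 5. Hoxb1 specifies a segment of the hindbrain and is known to maintain its own expression through sites close to its start. The 11 marked CGs of the Hoxb8 promoter averaged 24.0% (112 calls) and 52.4% (132 calls), with the highest single CG at 90.9% in TetTKO. The Hoxa5 promoter, by contrast, averaged 1.67% in WT (458 calls) and 1.96% in TetTKO (309 calls) over 28 CGs, and 21 and 22 of them were at 0. Hoxa5 is needed for lung and rib development. Few CGs did not always go with a gain: the promoter of Hoxa2, with 6 CGs, had 7.54% in WT and 6.08% in TetTKO.

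CG number varied widely among the Hox promoters. The 24 sequences held 2 to 35 CGs in 250 bases with a median of 12.5, against a median of 6 over all 32851 promoters in the RefSeq table. The letters TGATNNAT, the core of a site that Hox proteins bind together with Pbx partners, were searched on both strands. They occurred in 4 of the 24 Hox promoters, among them those of Hoxb1 and Hoxb8, and in 7.68% of all promoters of that length. A match describes the letters and not the binding of a factor.

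The libraries as a whole set the background. The bisulfite libraries held 132794183 (WT) and 150132176 (TetTKO) read calls over the 14323377 CpGs that both files list, and the mean over autosomes and X was 69.5% methylation in WT and 65.0% in TetTKO. Tet1 and Tet2 RNA were 3.45-fold and 3.60-fold lower in TetTKO, and Tet3 was at 0.32 and 0.27 FPKM (sequenced fragments scaled by transcript length and library size). The positions of the CRISPR cuts are not in the files, so these levels do not check the mutations themselves. The 8 stem cell markers were all above 1 FPKM in both libraries and none differed by 2-fold, with Pou5f1 at 1178 and 1092 FPKM. Of the 8, 3 were higher and 5 lower in TetTKO, among the lower Nanog (116.3 and 71.0 FPKM) and Esrrb (49.3 and 26.4). Chromosome 6, which carries HoxA, stood apart: its CpGs had a mean coverage of 11.9 in WT and 10.1 in TetTKO against 9.27 and 10.5 genome-wide, and the RNA of its genes was lower in TetTKO (median log2 fold change -0.52 over 310 genes that had 5 FPKM or more in each library, against -0.02 over 6432 genes elsewhere). Its part in the HoxA values was not tested, and counts without HoxA are given beside the main ones.

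All 4 clusters were low in methylation in WT and higher in TetTKO, while the genome was lower. Over their 8939 CpGs the clusters averaged 21.1% in WT and 28.8% in TetTKO, 7.66 percentage points higher, whereas the genome differed by -4.45 points. HoxA (mm9 chromosome 6, 52105366 to 52210874, 2607 CpGs) had 16.6% and 24.6%. HoxB (chromosome 11, 96055675 to 96229567, 2630 CpGs) had 28.7% and 35.2%. HoxC (chromosome 15, 102751562 to 102867283, 1777 CpGs) had 18.3% and 27.8%. HoxD (chromosome 2, 74506367 to 74603199, 1925 CpGs) had 19.4% and 26.6%. The gain was thus of like size in all 4, from 6.42 points in HoxB to 9.48 in HoxC, although the chromosomes that carry them were each lower in TetTKO, with differences of -3.04 points on chromosome 11 and -4.37, -4.95 and -4.25 points on chromosomes 2, 6 and 15.

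Counting error was small beside these differences. As shares of all read calls, HoxB had 29.8% (95% exact binomial interval 29.2 to 30.4) in WT and 36.5% (35.9 to 37.1) in TetTKO, HoxC had 19.5% (18.9 to 20.1) and 28.1% (27.4 to 28.8), and the intervals of HoxA and HoxD did not overlap between genotypes either. These intervals cover counting error only and are too narrow even for that, since a read enters once for each CpG it covers. HoxA had a mean coverage of 12.3 in WT and 10.3 in TetTKO, and the other clusters lay between 8.36 and 9.03 in WT and between 9.67 and 9.95 in TetTKO, so coverage was higher in WT for HoxA and lower in WT for the other clusters.

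The gain was smaller or absent in the 100 kb outside the clusters. In the 100 kb beyond both ends of HoxD, WT had 54.9% methylation and TetTKO 50.6%, which differed by -4.34 points. The flanks of HoxB and HoxC differed by -0.32 and -0.37 points. The HoxA flanks went the other way, 54.1% and 58.6%, with most of that on the paralog 13 side, where Evx1 lies (48.7% and 55.6%), and less on the paralog 1 side (60.4% and 62.2%). HoxC had the reverse arrangement: its flank at the paralog 13 end differed by -4.51 points, and the flank at the paralog 1 end by 3.16 points. The flank difference of all 4 clusters depended on the length chosen, as given under the processing alternatives. In HoxA the gain did not stop at the cluster: its 50 kb flanks gained 8.18 points, against 7.95 in the cluster.

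**Figure D1:**
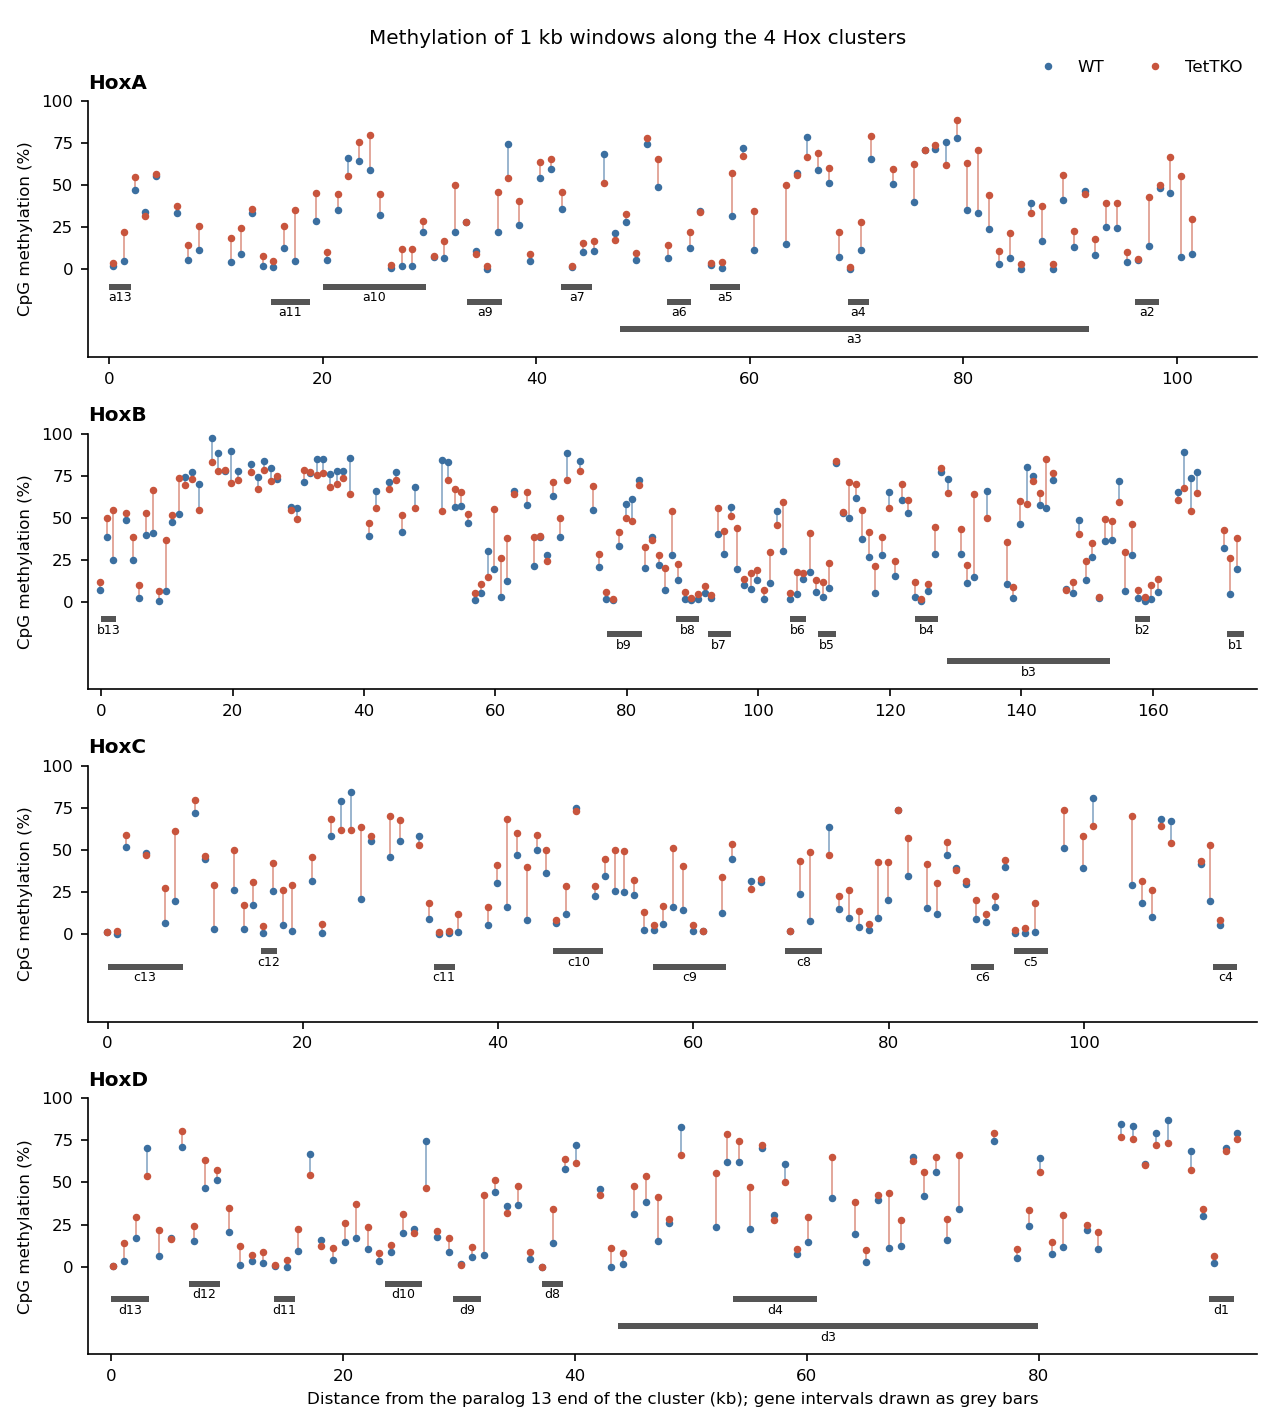
Methylation (%) of each 1 kb window with at least 5 CpGs, against distance from the paralog 13 end of its cluster in kb, for WT (blue) and TetTKO (red); the line between the points of a window is red where TetTKO is higher and blue where WT is higher, and grey bars are gene intervals; the windows over 1 gene are not drawn. Red lines prevail in all 4 clusters, with 323 of 424 windows higher in TetTKO, and blue lines gather in the long stretch of HoxB between Hoxb13 and Hoxb9, where most windows are above 50%.

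Single CpGs showed where in the range of methylation the difference lay. In WT, 48.0% of the 8939 CpGs in the clusters had no methylated call, against 31.3% in TetTKO. In the genome those shares were 10.1% and 8.30%. CpGs above 50% made up 17.8% of the clusters in WT and 24.3% in TetTKO, but CpGs above 80% made up 6.04% and 5.73%. Of the 4292 cluster CpGs at 0 in WT, 2.84% were above 50% in TetTKO, close to the 2.51% of such CpGs in the genome. The genome had 78.8% of its CpGs above 50% in WT and 76.6% in TetTKO, and 46.9% and 31.5% above 80%. At a coverage near 10, a CpG with a low true level can be at 0 by chance in either library.

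Among the 424 windows, 323 were higher in TetTKO by any amount, against 27.8% of all windows. At least 10 points of gain were found in 163 windows (7.85% of all windows), 39 of 96 in HoxA, 46 of 150 in HoxB, 46 of 91 in HoxC and 32 of 87 in HoxD. Without HoxA the count was 124 of 328. At least 10 points of loss were found in 36 windows (32.5% of all windows), and 18 of these lay in HoxB. The median window was 7.07 points higher inside the clusters, and over the genome it differed by -5.79 points. Windows under 10% methylation numbered 128 in WT (2.63% of all windows) and 63 in TetTKO (1.8% of all windows). The longest run of neighbouring measured windows under 10% was also shorter in 3 clusters: it held 5 windows in WT and 2 in TetTKO in HoxC, 6 and 4 in HoxD, and 3 and 2 in HoxA. In HoxB it held 5 in both, over Hoxb8 and the start of Hoxb7. Runs of windows higher in TetTKO reached 14 in HoxA (from Hoxa10 past Hoxa11), 16 in HoxB (from Hoxb6 past Hoxb5), 15 in HoxC (from the end of Hoxc13 past Hoxc12) and 11 in HoxD (Hoxd12 and Hoxd11).

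Gains of at least 30 points were found in 21 windows of the clusters (0.67% of all windows): 5 in HoxA, 3 in HoxB, 9 in HoxC and 4 in HoxD. The largest lay 4228 bp from Hoxc10 on chromosome 15 (102792000 to 102792999, 9 CpGs), where 18.6% of 70 calls were methylated in WT and 66.7% of 114 in TetTKO. A window within the Hoxb3 interval (chromosome 11, 96188000 to 96188999, 12 CpGs) had 14.8% and 64.0%. A window 1511 bp from Hoxa2 (chromosome 6, 52110000 to 52110999, 19 CpGs) had 7.27% and 55.4%, from 225 and 118 calls. In each of these 3 a window that was mostly unmethylated in WT was mostly methylated in TetTKO. A window 6958 bp from Hoxc11 (102777000 to 102777999, 12 CpGs) had 21.0% and 63.6%, and a window at the end of Hoxc13 (102758000 to 102758999, 11 CpGs) had 19.7% and 61.5%. A window within Hoxc8 (102823000 to 102823999, 12 CpGs) went from 7.57% to 48.6%.

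The other 15 windows past 30 points gained 30.2 to 40.7 points and either overlapped gene intervals or lay in the spaces between genes. In HoxC they lay 7827 bp from Hoxc4 (28 and 39 calls only), in Hoxc9 (16.3% and 51.4%) and over the start of Hoxc4 (19.6% and 53.2%). The rest in HoxC lay 5315 bp from Hoxc8 (31 and 41 calls) and 2228 bp from Hoxc10, the last with 28 CpGs at 8.30% and 39.8%. In HoxD they lay in Hoxd9 (22 CpGs, 7.02% and 42.6%) and at 3 places in Hoxd3, the best covered of them with 31 CpGs at 11.3% and 43.6%. In HoxA those described here lay at 2 places in Hoxa3 and in Hoxa11, a regulator of limb and uterus development, where 24 CpGs had 4.90% and 35.1%. In HoxB they lay 7087 bp from Hoxb13, with 33 CpGs at 6.53% and 36.8%, and 16645 bp from Hoxb9, inside the gene Gm53, at 19.6% and 54.9%. Gains of this size were therefore not confined to gene starts, and none of the 21 windows had 40 or more listed CpGs.

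Losses were fewer, and the 5 largest lay in methylated windows. A single window passed 30 points (0.638% of all windows), 24645 bp from Hoxb9 on chromosome 11 (96107000 to 96107999, 11 CpGs), with 84.5% in WT and 53.8% in TetTKO. The next were a window in Hoxd10 (74533000 to 74533999, 74.8% and 46.5%), a window 7052 bp from Hoxc12 (102776000 to 102776999, 84.7% and 61.6%), a window in Hoxb3 (96196000 to 96196999, 80.04% and 58.2%) and a window 4672 bp from Hoxb2 (96220000 to 96220999, 89.2% and 67.8%). All 5 were more than 50% methylated in both libraries but for the Hoxd10 window in TetTKO. The window that lost methylation near Hoxc12 directly adjoined the window that gained 42.5 points near Hoxc11, and the pair had 84.7% and 21.0% in WT but 61.6% and 63.6% in TetTKO.

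CpG number separated the windows further. It counts only the listed CpGs, those with at least 5 calls in both libraries, so a dense window with little coverage can fall in a lower class. The Hoxd1 promoter, for example, held 24 CGs in 250 bases, of which 4 were listed. In windows with 5 to 9 CpGs the clusters had 54.0% in WT and 57.8% in TetTKO, and 36 of 116 gained at least 10 points (5.83% of all such windows). In windows with 10 to 19 CpGs they had 37.9% and 46.2%, and 60 of 132 gained as much (10.5% of all). In windows with 20 to 39 CpGs they had 17.7% and 29.2%, and 62 of 123 gained as much (23.5% of all). These windows showed the largest mean difference of the 4 classes in the clusters, 11.5 points, and 115 of the 123 were higher (64.6% of all such windows). In windows with 40 or more CpGs the clusters had 4.53% and 8.93%, and 5 of 53 gained 10 points (4.04% of all). Over the genome the same 4 classes differed by -6.67, -2.96, 3.81 and 2.03 points, so the sign over dense windows was the same as in the clusters. In windows with 5 to 9 CpGs the gain came from HoxA and HoxC (8.21 and 11.1 points), while HoxB and HoxD differed by -0.10 and -0.36 points.

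**Figure D2:**
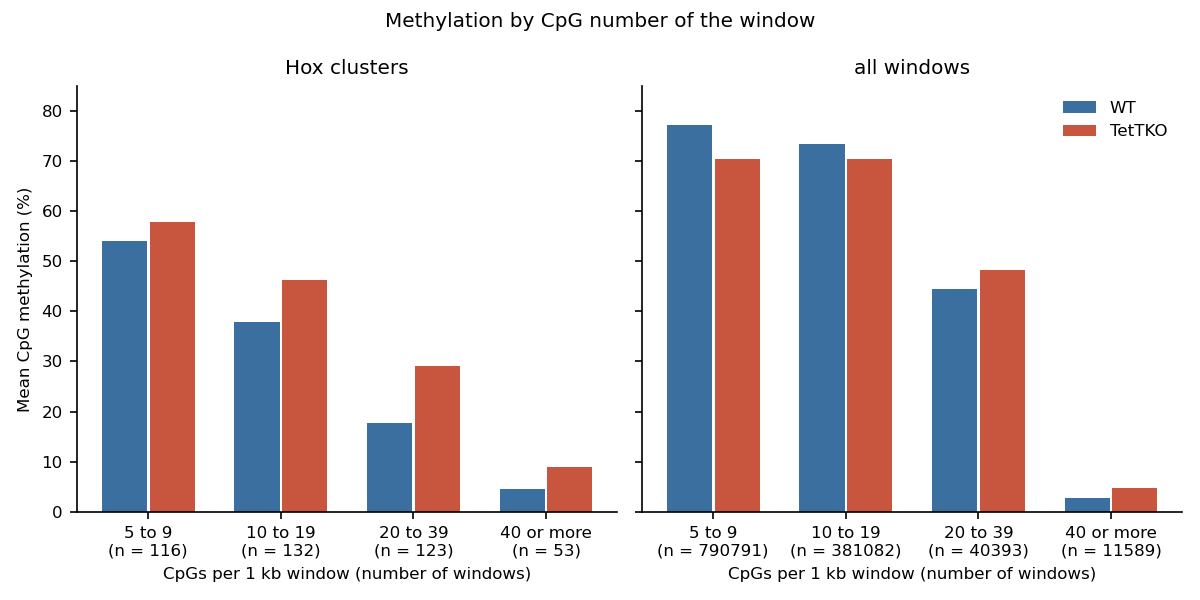
Mean methylation (%) of 1 kb windows by their number of listed CpGs, for the Hox clusters (left) and all windows of autosomes and X (right). WT is in blue and TetTKO in red. Bars are means over windows, with 1 library each and no error bar. In the clusters the TetTKO bar is higher in every class, most at 20 to 39 CpGs (17.7% and 29.2%), while over all windows it is lower in the classes with fewer than 20 CpGs.

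Windows sorted by their WT level showed a like pattern. To limit the part of counting noise, the class of a window came from its odd-numbered CpGs and the values from its even-numbered ones. Neighbouring CpGs share reads, so this split does not remove that noise. The 132 Hox windows in the class under 10% averaged 4.94% (WT) and 13.5% (TetTKO), and 120 were higher (77.7% of all windows of that class). The 168 windows between 10 and 50% had 27.4% and 42.3%, 14.9 points higher, and 149 were higher (72.5% of all windows of that class). Windows of these levels gained over the genome too, by 5.38 and 9.14 points. Among windows with more than 15 CpGs the Hox windows under 10% gained 8.06 points against 3.65 for all such windows, while those between 10 and 50% gained 13.5 against 12.6. The 102 Hox windows between 50 and 80% differed by -1.09 points, a sign that every other way of setting the class turned. All windows of that class differed by -4.45 points. The 22 Hox windows above 80% differed by -9.56 points (82.3% and 72.8%), against -8.19 for all such windows. The sign of these 22 turned with the class set from TetTKO. With that class the Hox windows under 10% gained 2.77 points. Hox windows under 50% thus gained, as all windows of those levels did, and by more in each split. The clusters also had more windows of low level, 30.2% under 10% in WT against 2.63% of all windows. The part of each in the gain of the clusters was not tested.

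The gain also varied along the clusters. Each was divided into 5 equal parts from the paralog 13 end. In HoxA the gain was 9.41 points in the part with Hoxa13 and Hoxa11, was 5.67 and 4.81 points over Hoxa10 to Hoxa5, and was 11.2 in both parts from Hoxa4 to the paralog 1 end. In HoxB it was 4.81 and 4.06 points in the 2 parts from Hoxb13 to short of Hoxb9, 5.97 over Hoxb9 to Hoxb7, 9.17 over Hoxb6 to Hoxb3, and 6.96 at the Hoxb1 end. In HoxC it was 11.9 at the Hoxc13 end and 6.42 at the Hoxc4 end. In HoxD it was 5.00 at the Hoxd13 end, 11.2 and 12.6 points in the parts over Hoxd4 and Hoxd3, and 4.31 at the Hoxd1 end. As shares of read calls the Hoxd1 end had 25.9% and 35.3%, a larger gain of 9.47 points. No single direction from anterior to posterior held in all 4 clusters, and all 20 parts were higher in TetTKO.

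Taken by gene interval, 38 of the 39 Hox genes had higher methylation in TetTKO (31.3% of 20475 gene intervals with at least 10 CpGs). The median Hox gene went from 9.67% in WT to 17.8% in TetTKO, with a median difference of 6.04 points against -2.91 over all genes. At least 10 points of gain were found in 8 Hox genes (2.8% of all) and 10 points of loss in 0 (5.99% of all). The intervals of Hoxa4, Hoxa5 and Hoxa6 lie inside the interval of Hoxa3, and that of Hoxd4 inside Hoxd3, so those genes share CpGs. Whether a CpG is in an exon or an intron could not be read from the files, which give only the ends of each gene.

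Genes of the anterior end included the largest gain. Hoxb1 (chromosome 11, 96227072 to 96229567, 64 CpGs) had 9.98% in WT and 30.6% in TetTKO. Hoxd1, of the same paralog group, gained 3.20 points, from 15.6% to 18.8%, as a mean over CpGs and 7.25 points, from 16.6% to 23.8%, as shares of read calls. In paralogs 2 and 3, Hoxd3 (74550050 to 74586328, 649 CpGs) had 25.9% and 37.1%, Hoxb3 and Hoxa2, the regulator of the pharyngeal arches, gained 9.27 and 9.52 points, Hoxa3 7.99, and Hoxb2 2.39, from 1.35% to 3.73%.

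Genes of the middle, paralogs 4 to 8, which pattern the neck and trunk, gained 2.86 points (Hoxb8) to 13.3 points. The largest of these was Hoxc8 (chromosome 15, 102820970 to 102824685, 53 CpGs), which acts in thoracic vertebrae, with 10.4% in WT and 23.7% in TetTKO. Hoxb5 followed with 10.01% and 19.99%, and Hoxd4 with 27.8% and 36.9%. Hoxa7 (7.64% and 11.03%) and Hoxb4 (4.94% and 7.94%) were among the smallest gains.

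Genes of the posterior end, paralogs 9 to 13, held both large and small gains. Hoxb13 (chromosome 11, 96055675 to 96057913, 62 CpGs), which acts in the tail bud and the prostate, had 29.4% in WT and 47.9% in TetTKO. Hoxa13 (chromosome 6, 52208852 to 52210874, 42 CpGs), which shapes digits and the genital tract, had 6.87% and 20.3%. Hoxc9 (102807463 to 102814875, 131 CpGs), a determinant of thoracic motor neurons, had 5.56% and 16.2%, and Hoxd12 (74513087 to 74515762, 49 CpGs), a limb gene, had 27.6% and 37.6%. Against these, Hoxc11 had 0.44% and 2.01%, Hoxd11 0.42% and 2.88%, and Hoxd13, the digit gene, 6.57% and 8.81%. Hoxb9 was the exception to the direction, with 22.5% and 21.7%, and its read shares of 28.9% (95% interval 25.7 to 32.2) and 26.3% (23.6 to 29.2) overlapped. Within paralog group 13 the gains thus ran from 2.24 points in Hoxd13, or 5.29 as shares of read calls, to 18.5 in Hoxb13.

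**Figure D3:**
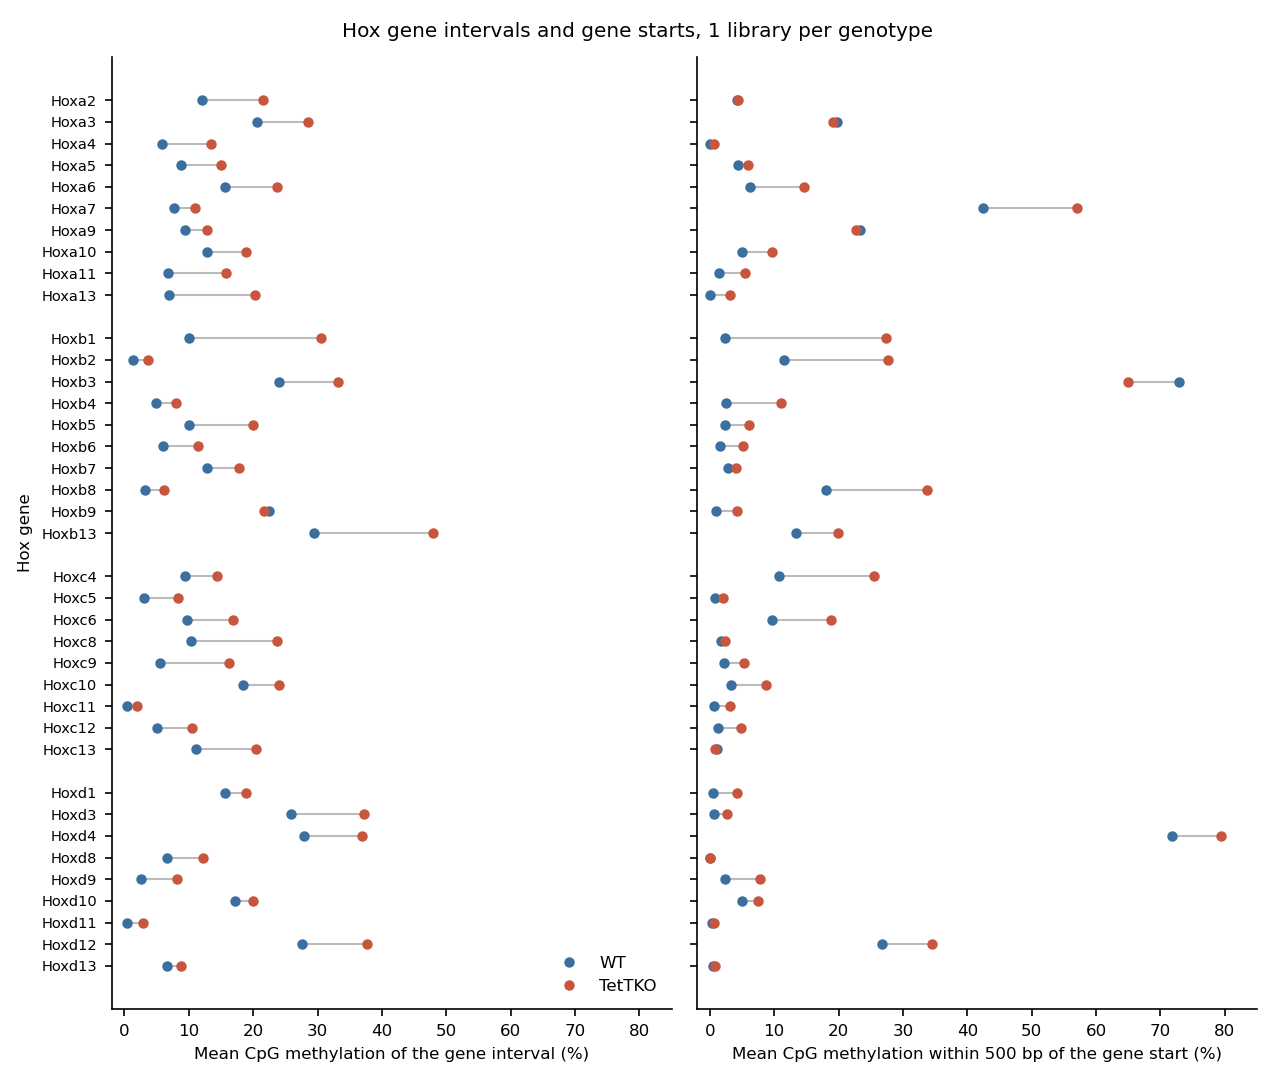
Mean CpG methylation (%) of 38 Hox genes in WT (blue) and TetTKO (red), over the gene interval (left) and within 500 bp of the gene start (right), 1 row per gene; each point is 1 library, with no error bar. On the left all genes but Hoxb9 are higher in TetTKO, with gains of 20.6 and 18.5 points for Hoxb1 and Hoxb13, and on the right most starts lie near 0 in both while Hoxb1 goes from 2.31% to 27.3%.

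Across the 39 genes the gain was larger where WT methylation was higher (Spearman rho 0.46) and had little relation to paralog number (rho -0.13). These are descriptions across genes that share libraries and in part share CpGs, and the WT level enters both sides of the first.

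Gene starts were lower in methylation than gene bodies and gained less. Within 500 bp of the start, the median Hox gene had 2.41% in WT and 5.86% in TetTKO. In WT 29 of the 39 start regions were under 10% (59.8% of 15078 other genes), and 25 were in TetTKO (55.2%). Hoxd8 (79 CpGs) had no methylated call in either library, and Hoxd11 (73 CpGs) had 0.39% and 0.60%. At least 10 points of gain were found in 5 start regions (9.46% of other genes), a share near that of other genes: Hoxb1 (2.31% and 27.3%, 33 CpGs), Hoxb2 (11.5% and 27.7%, 13 CpGs), Hoxb8 (18.1% and 33.7%, 35 CpGs), Hoxc4 (10.7% and 25.5%, 30 CpGs) and Hoxa7 (42.4% and 57.0%, 22 CpGs). Hoxb1, Hoxb8 and Hoxc4 are the genes whose promoter sequences are printed above. The Hoxb3 start, at 72.9% and 64.9%, was lower in TetTKO, and those of Hoxa3, Hoxa9 and Hoxc13 differed by -0.60, -0.68 and -0.32 points. Hoxd4, at 71.8% and 79.5% over 13 CpGs, was the other start above 50% in WT. The deposited tables give 1 start per gene, and other starts were not used here.

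The difference was smallest at the start and largest to either side of it. Averaged over Hox genes, the 500 bases downstream of the start had 9.23% in WT and 13.2% in TetTKO, with 30 of 38 genes higher (51.6% of other genes) and 6 gaining at least 10 points (10.7%). The next 500 bases had 8.19% and 14.8%, with 31 of 37 genes higher (59.7% of other genes) and 12 past 10 points (19.5%). From 1000 to 2000 bp downstream the values were 16.8% and 30.2%, with 37 of 39 genes higher (49.9% of other genes) and 22 gaining at least 10 points (19.7% of other genes). From 1000 to 500 bp upstream they were 30.7% and 42.3%, with 31 of 38 genes higher (54.1% of other genes) and 22 past 10 points (22.7%). In the 500 bases directly upstream they were 12.1% and 18.4%, with 30 of 38 higher (56.6% of other genes) and 10 past 10 points (13.5%). The dip around Hox starts thus had a higher lowest level in TetTKO. Levels 1000 to 500 bp upstream and 1000 to 2000 bp downstream rose by more than those at the start. For up to 15082 other genes with a known strand, the same distances differed by 0.14 points (0 to 500 bp downstream), 1.58 (500 to 1000 bp downstream), -0.44 (1000 to 2000 bp downstream), 0.67 (1000 to 500 bp upstream) and 0.94 (500 to 0 bp upstream). In HoxB, the 1000 to 2000 bp bin went from 10.6% to 24.8% and was higher in all 10 genes, and in HoxA, on chromosome 6, from 15.4% to 27.7%.

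**Figure D4:**
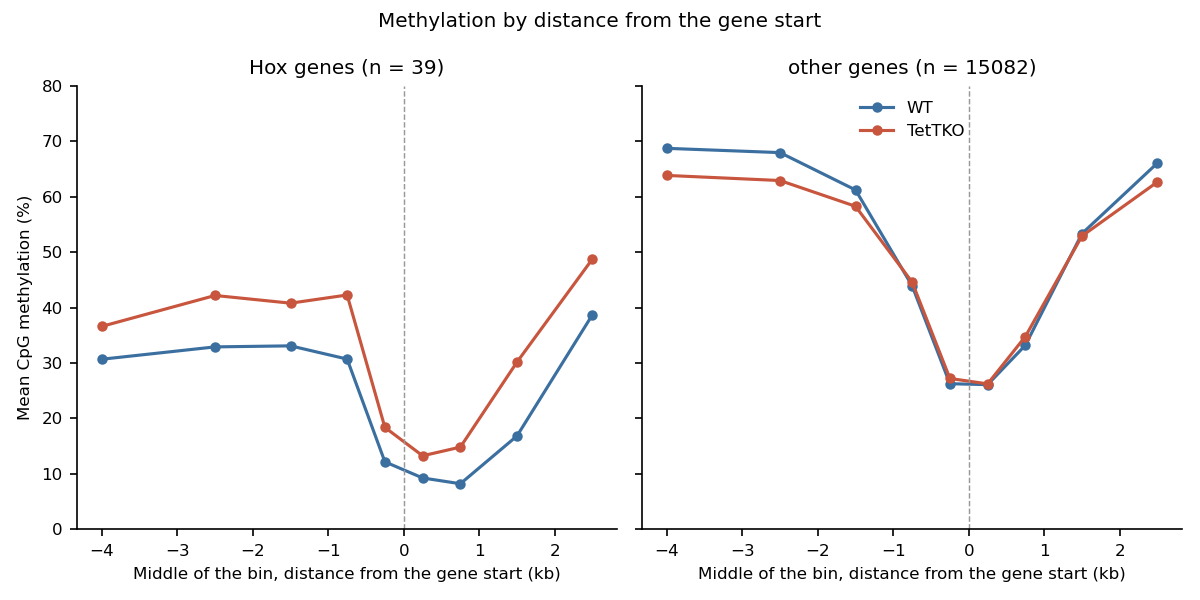
Mean methylation (%) by distance from the gene start in kb (negative is upstream) for the 39 Hox genes (left) and for other genes with a known strand (right), WT in blue and TetTKO in red; points are means over genes for bins that end at 5 kb upstream and 3 kb downstream. The Hox curves part at every distance, least from 0 to 0.5 kb downstream (9.23% and 13.2%), while the curves of other genes nearly coincide near the start.

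RNA of the Hox genes was close to the floor in both libraries. None of the 39 genes reached 1 FPKM in either library, against 48.8% of 22492 genes, and therefore none could be counted as 2-fold higher or lower among genes of that level (1.77% and 0.847% of 10984 genes). The highest value was 0.36 FPKM in WT (Hoxd13) and 0.81 in TetTKO (Hoxb13). The summed FPKM of the 39 genes was 2.57 in WT and 4.77 in TetTKO. In a bulk sample, more cells with a transcript and more transcript per cell cannot be told apart, and no FPKM here has a replicate or a known read depth.

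At these low levels more Hox genes were higher than lower. In TetTKO 26 were higher (40% of the 11508 genes under 1 FPKM in both libraries), 6 were lower (21.4%) and 7 were equal, of which 5, Hoxa6, Hoxa13, Hoxb6, Hoxb8 and Hoxc6, were listed at 0 in both (34.7%). Genes with the most RNA in TetTKO included Hoxb13 (0.33 and 0.81 FPKM) and Hoxd13 (0.36 and 0.69). A further group was nearly absent in WT: Hoxb7 (0.06 and 0.28), Hoxd1 (0.04 and 0.27), Hoxb2 (0.07 and 0.25) and Hoxd8 (0.02 and 0.18). Hoxb4 (0.07 and 0.15), Hoxd4 (0.05 and 0.15), Hoxb9 (0.07 and 0.14), Hoxa10 (0.15 and 0.18) and Hoxa7 (0.12 and 0.15) differed by at most 0.10 FPKM. Of the 14 genes that reached 0.1 FPKM in a library, only the HoxC genes Hoxc12 (0.28 and 0.03) and Hoxc13 (0.30 and 0.16), the latter a gene of hair and nails, were lower. The clusters therefore differed in sign, with sums of 0.78 and 1.28 FPKM in HoxA, 0.62 and 1.76 in HoxB, 0.64 and 0.30 in HoxC and 0.53 and 1.43 in HoxD, a difference that was not tested.

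**Figure D5:**
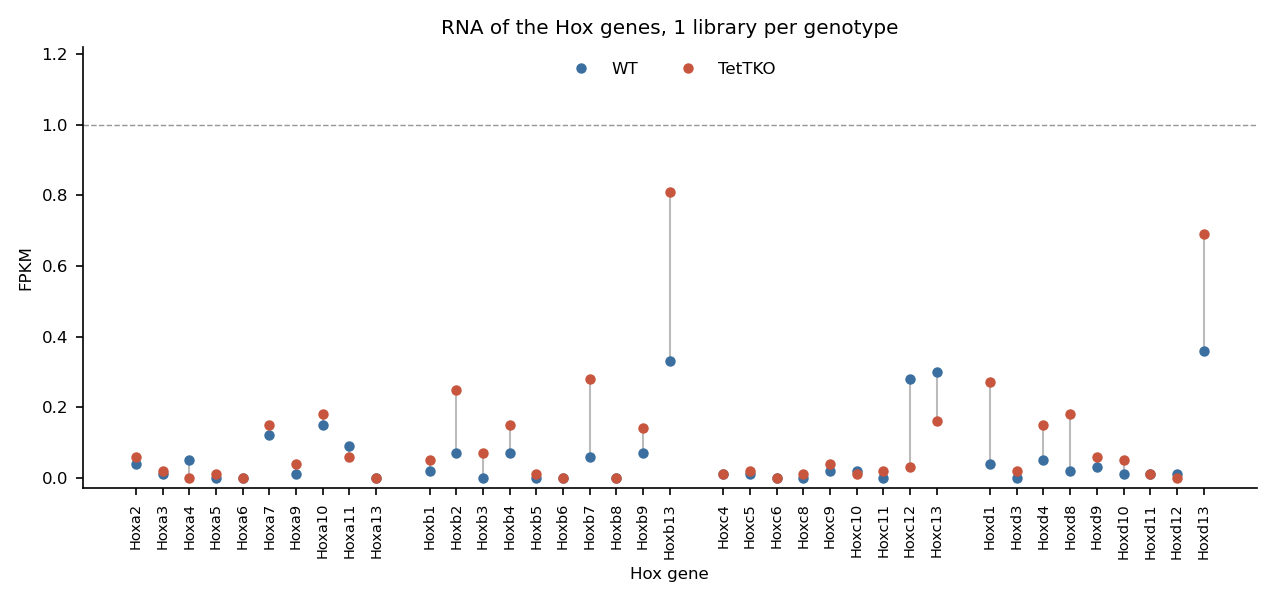
RNA level (FPKM) of 38 Hox genes in WT (blue) and TetTKO (red), 1 library each, with the dashed line at 1 FPKM. No point reaches the line; Hoxb13 and Hoxd13 are the highest in TetTKO (0.81 and 0.69), and Hoxc12 and Hoxc13 are lower than in WT.

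Methylation and RNA showed no common order across the genes. Hoxb1, with the largest gain in methylation, had 0.02 and 0.05 FPKM, while Hoxb13, with a gain nearly as large, had the highest RNA in TetTKO. Hoxd13 had RNA at the same level with a gain of 2.24 points, or 5.29 as shares of read calls. Over the 39 genes the difference in methylation and the difference in FPKM had a Spearman rho of -0.15, and WT methylation and WT FPKM had 0.06, given as descriptions across genes near the floor.

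The partners and regulators of the Hox genes were measured at higher levels. Of 9 cofactors, which bind DNA beside Hox proteins, 7 had at least 1 FPKM in either library, and 6 of these were higher and 1 lower in TetTKO, none by 2-fold on the log2(FPKM + 1) scale. Meis1 (0.27 and 1.51 FPKM), Meis2 (0.47 and 1.53) and Meis3 (0.51 and 1.60) were all under 1 FPKM in WT and could be counted only as higher, while Pbx2, the most abundant, had 15.1 and 17.2. Of 9 upstream activators 5 reached 1 FPKM, 3 higher and 2 lower, with the retinoic acid receptors Rarg at 45.9 and 52.9 FPKM and Rara at 6.33 and 5.39. The caudal genes Cdx1 (0.91 and 0.49) and Cdx2 (0.27 and 0.92) stayed under 1 FPKM.

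Polycomb group RNA, whose products keep the clusters silent, was present throughout. All 11 genes of Polycomb repressive complex 2 were above 1 FPKM in at least 1 library, 4 higher and 7 lower (median log2 fold change -0.01). Its methyltransferase Ezh2, on chromosome 6, had 57.7 and 37.0 FPKM, Suz12 had 35.8 and 53.9, and Eed had 159.8 and 159.2. Of 18 genes of Polycomb repressive complex 1, 16 reached 1 FPKM, 10 higher and 6 lower (median 0.07), and of 9 Trithorax genes found, 6 did, 2 higher and 4 lower (median -0.08). None of the 33 Polycomb and Trithorax genes at that level differed by 2-fold on the log2(FPKM + 1) scale. As plain FPKM ratios, Bmi1 (2.07 and 4.38) and Cbx8 (0.51 and 1.13) of complex 1 were 2.12-fold and 2.22-fold higher in TetTKO, and none was 2-fold lower. The median over all 10984 genes at that level was -0.01.

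Markers of other cell types were also measured, since differentiated cells can bring Hox RNA. Of 6 primitive endoderm markers 4 reached 1 FPKM, all in TetTKO alone, and the 6 summed to 2.11 FPKM in WT and 6.58 in TetTKO, with none listed at 0. The 5 mesoderm markers summed to 1.46 and 3.32 FPKM, the 5 trophoblast markers to 27.1 and 45.3 (mostly Krt8 and Tfap2c, with Elf5 listed at 0 in WT and at 0.02 in TetTKO), the 5 neural markers to 2.90 and 1.67, and the 5 fibroblast markers to 1.52 and 1.67. Endoderm, mesoderm and trophoblast markers thus were higher in the same library as most Hox genes, and their part in the Hox RNA was not tested.

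Genes beside and within the clusters did not all share the gain. Evx1, a homeobox gene next to HoxA, gained methylation (7.69% and 19.8%) and had 0.15 and 0.14 FPKM, and Evx2, next to HoxD, had 2.54% and 3.60% and was listed at 0 in both libraries. The antisense transcript Hoxa11as had 0.09 and 0.02 FPKM; it overlaps Hoxa11, and whether reads were assigned by strand is not stated, so the values of this pair, like those of the genes inside Hoxa3 and Hoxd3, may share reads. Gm53, which lies between Hoxb13 and Hoxb9, had 24.9% and 36.5% methylation and 0.80 and 1.53 FPKM, above every Hox gene in its cluster. Outside, Mtx2 (48.3 and 54.4 FPKM) and Lnp (3.77 and 4.01) next to HoxD differed little in RNA, and their methylation differed by -8.74 and -5.83 points. Skap2 and Snx10, genes with RNA on the paralog 1 side of HoxA, lay 142818 and 564697 bp from it. They were 2.25-fold and 2.12-fold lower in TetTKO, more than the median of their chromosome.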

How the data were processed

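Per the labels' protocols, bisulfite libraries carried unmethylated lambda DNA and were read as pairs, and RNA was depleted of ribosomal RNA and made into directional libraries. Trim Galore, Bismark 0.7.9, Bowtie, SAMtools, TopHat2 2.0.2, Cufflinks 2.0.2 and, as the build, mm9 appear in the submitters' processing notes. For settings and gene models, the sources used here give nothing. The deposited methylation files give, per CpG, the fraction of calls that were methylated beside call counts (methylated, total), with at least 5 calls in both libraries. The deposited FPKM tables give 1 value per gene, rounded, with an interval and no strand.

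Methylation was averaged over CpGs, over 1 kb windows at fixed positions that held 5 or more CpGs, over gene intervals with at least 10 CpGs and within 500 bp of gene starts, on autosomes and X. Strand came from the order of paralogs and, for 22 Hox genes and for all other genes, from the RefSeq promoter table. It was the same for all 22. Windows and genes were counted at 10 and 30 percentage points. RNA was compared as log2((TetTKO + 1)/(WT + 1)) of FPKM, which understates differences of low genes. The depth of the RNA libraries is unknown. Read shares have exact 95% binomial intervals (Clopper-Pearson). With 1 library per group no p-value was computed. The window calculation was tested on simulated data.

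The members, the 12 other gene lists and the rules were chosen with earlier results of these data known. Values are printed for every Hox gene past 10 points or with at least 0.1 FPKM and for the 5 largest losses. Windows past 30 points are given by place, with levels printed for most of them. Results of some genes are not reported here, though they stay in the counts. Other settings for coverage, window size, class, flank length, pseudocount and level were tried. Python 3.11.15, NumPy 2.4.6, pandas 2.3.3, SciPy 1.17.1 and matplotlib 3.10.9 were used.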

Additional observations from a re-analysis of the deposited data

How the results depend on the processing

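Over 31 results, 118 values under other settings were computed: 63 were close to the reported value and 55 moved. The sign changed in 6 of these, for the flanks of HoxB and HoxC at 50 kb, for windows between 50 and 80% under the 3 other ways of setting the class, and for windows above 80% with the class set from TetTKO. No paired analysis was possible because each genotype had 1 library of each kind. All 4 clusters were higher in TetTKO under every setting tried. Centred on the median window, the gains were 13.7 points in HoxA, 12.2 in HoxB, 15.3 in HoxC and 13.05 in HoxD, and 253 windows gained and 17 lost at least 10 points, 44 gained and 0 lost at least 30, and 18 genes gained at least 10. Outside gene intervals, HoxA gained 8.71, HoxC 11.1 and HoxD 5.81 points. As read shares, HoxD gained 8.88. With a coverage of at least 10, HoxC gained 8.32, 72 of 180 windows gained and 14 lost at least 10 points, 8 gained and 0 lost 30, and 14 genes gained at least 10. With 50 kb flanks the flank differences were 8.18 (HoxA), 1.56 (HoxB), 3.23 (HoxC) and -2.57 (HoxD), and with 200 kb they were 0.58 (HoxA), -1.48 (HoxB) and -5.63 (HoxD). Windows of 500 bp gave 245 gains of 10 and 42 of 30 points among 582, and 2 kb windows gave 92 and 5, with 14 and 0 losses, among 249. Losses of 30 points numbered 3 with at least 3 CpGs and 0 in windows shifted by 500 bp, and losses of 10 points numbered 13 with at least 10 CpGs. With the class set from even-numbered CpGs, windows between 10 and 50% gained 12.4 and those between 50 and 80% gained 0.74 points. With the class set from TetTKO, the 4 classes from low to high gained 2.77, 12.7, 3.85 and 1.49 points. With the class set from the first 300 bp, they differed by 7.74, 12.0, 4.35 and -3.46. With 3 parts per cluster, the paralog 13 end gained 7.48 (HoxA), 2.07 (HoxB) and 9.58 (HoxC), and the paralog 1 end of HoxD 7.25. With a pseudocount of 0.1 FPKM and no level rule, 6 Hox genes were 2-fold higher, 1 was 2-fold lower and the median log2 fold change was 0.18, and over genes of at least 0.1 FPKM it was 0.17. At a level of 0.5 FPKM 3 Hox genes passed, and 1 reached 1 FPKM when scaled to its chromosome's median. Leaving out HoxA, a setting chosen after seeing the data, gave 124 gains and 31 losses of 10 points and 16 gains and 1 loss of 30 points among 328 windows. Other coverage limits, an added 1000 bp around genes and HoxB without Hoxb13 left the results they touch close to the reported values. The causes of these shifts were not tested. Depth limits single CpGs and windows with few CpGs, and with FPKM alone the smallest detectable RNA level is unknown.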

Other observations

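Calcoco2, an autophagy receptor gene on chromosome 11 that lies 82399 bp from Hoxb13, was 3.71-fold higher in TetTKO (47.5 FPKM, against 12.8 in WT), with 68.3% and 62.6% methylation over its 89 CpGs. Ttll6, which lies between it and HoxB at 28909 bp from the cluster, had 0.21 and 0.70 FPKM, and Skap1 on the other side had 0.09 and 0.12. On chromosome 15, the nearest genes with RNA on either side of HoxC, Calcoco1 (9.39 and 7.50 FPKM) and Smug1 (5.25 and 3.99), were both lower in TetTKO. Atp5g2, which lies beyond Calcoco1 at 250084 bp from the cluster, differed little, with 385 and 387 FPKM.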
